A study of Mus musculus with 6 samples.

Results

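Arginase 1 (*Arg1*), inducible nitric oxide synthase (*Nos2*), indoleamine 2,3-dioxygenase 1 (*Ido1*), interleukin-4-induced gene 1 (*Il4i1*), CD73 (*Nt5e*), CD39 (*Entpd1*), the adenosine receptor genes *Adora2a* and *Adora2b* and cyclooxygenase 2 (*Ptgs2*) were followed across the cell labels and libraries of CT26 tumors. These 9 genes, chosen by name as enzymes and receptors of immunosuppressive metabolism, were all found among the 31053 genes of the count table, of which 23764 had at least 1 unique molecular identifier (UMI, 1 captured mRNA molecule). CT26 is a mouse colorectal carcinoma line, here grown as tumors in Balb/c mice. The series describes 6 tumors in 3 groups of 2: vehicle, low dose and high dose of a bispecific antibody that joins an antibody to PD-1, an inhibitory receptor of T cells, with the ligand of GITR, a costimulatory receptor. For the high dose both the treatment protocol and the sample description give 30 mg/kg, whereas for the low dose the protocol gives 10 mg/kg and the sample description gives 30 mg/kg. Tumors were dissociated, leukocytes were enriched with CD45 beads, and the cells were sequenced by droplet 3′ single-cell mRNA-seq.

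The deposited table assigned its 33961 cells to 4 libraries named M1, M2, M5 and M6, and none of these names could be matched to a tumor or a treatment. The libraries were therefore treated as separate samples of unknown treatment, each value was given per library, and no test between groups was made. They held 7160 to 10294 cells and 158337797 to 315577167 UMIs, with a median of 11399 to 21800 UMIs per cell. M5 and M6 had the lower medians and held fewer cells of the deep Stroma label (1946 and 2338) than M1 and M2 (6300 and 5103). Within Stroma their median depth was not lower, with 42316 and 43988 UMIs against 38910 and 40222. A total of 111 cell barcodes occurred in more than 1 library, which concerned 222 cells, and the ratios and shares recomputed without these cells stayed within their counting intervals.

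The metabolic routes considered here change what lymphocytes find in their surroundings. Arginase and nitric oxide synthases both consume arginine, IDO1 breaks down tryptophan to kynurenine, and IL4I1 oxidizes aromatic amino acids. CD39 and CD73 together turn extracellular ATP into adenosine, which adenosine receptors sense, and COX-2 makes the precursor of prostaglandin E2. In tumors, myeloid cells, regulatory T cells, fibroblasts and the cancer cells themselves are known sources of such enzymes.

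Levels were expressed as UMIs of a gene per 1000000 UMIs (CPM) of all cells that carried a label, with exact 95% Poisson intervals where given. Intervals cover counting error only. Labels were those of the authors, who had assigned cells by their correlation with ImmGen reference profiles, and they were checked here against marker genes. The Myeloid label (2680 cells) led in the macrophage markers *C1qa*, *C1qb*, *C1qc*, *Adgre1* and *Mrc1*, but also held cells with neutrophil transcripts (*S100a8*, *S100a9*, *Csf3r*) and cells with the mast cell proteases *Cpa3* and *Mcpt4*. The Stroma label (15687 cells) led in *Col1a1*, *Col1a2*, *Col3a1* and *Dcn*, and was low in *Ptprc*, which encodes CD45, with 7.47 CPM against 584 CPM in the Myeloid label. It was mixed too, since 7921 of its cells had no *Col3a1* UMI, at a median depth of 39416 UMIs, and 1166 had 10 or more. The label may hold CT26 cancer cells beside fibroblasts, and which of its cells were which was not tested. NK and B cell markers led in the labels of those names. The label of innate lymphoid cells (ILC) came next in the NK markers, with *Ncr1* at 422 against 450 CPM in NK cells. *Klrb1c* was at 73.5 against 110 CPM and *Eomes* at 152 against 301 CPM. Regulatory T cell markers led in the generic T cells and NKT labels. *Foxp3* was at 239 and 196 CPM there, against 64.2 CPM in memory and 18.8 CPM in effector T cells, and *Ikzf2* at 1183 and 1224 CPM. The NK marker *Klrb1c* was at 9.25 CPM in NKT cells, against 110 CPM in NK cells.

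Of the 9 genes, 5 were highest in the Myeloid label (*Arg1*, *Nos2*, *Entpd1*, *Adora2b* and *Ptgs2*). Of all 15358 genes with at least 100 UMIs, 8.97% were highest there. Both *Nt5e* and *Adora2a* were highest in the generic T cells label, as were 8.91% of all genes. *Ido1* was highest in Stroma (26.0% of all genes) and *Il4i1* in the dendritic cell label, DC (8.71%). When the same label had to lead in every library, 4 members remained in Myeloid (5.83% of genes), 0 in Stroma (20.2%) and 1 in DC (4.90%). The T cells label held at least 50 cells only in M5 and M6 and was left out of this count. By library, *Entpd1* was highest in effector T cells in M2 and *Ido1* in DC in M1. *Nt5e* was highest in memory T cells in M1 and M2 and NKT cells in M5, and *Adora2a* in NK cells in M1 and NKT cells in M2 and M6. The T cells label could not lead in M1 and M2, where it held 11 and 19 cells. There it had 64.4 CPM of *Nt5e* in M1 (3 UMIs) and 112 CPM of *Adora2a* in M2 (14 UMIs), above the labels that led. Part of these changes therefore follows from the limit of 50 cells. The share of all genes whose leading label changed was not counted. The plot of levels by label and library shows all 9 genes.

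**Figure D1:**
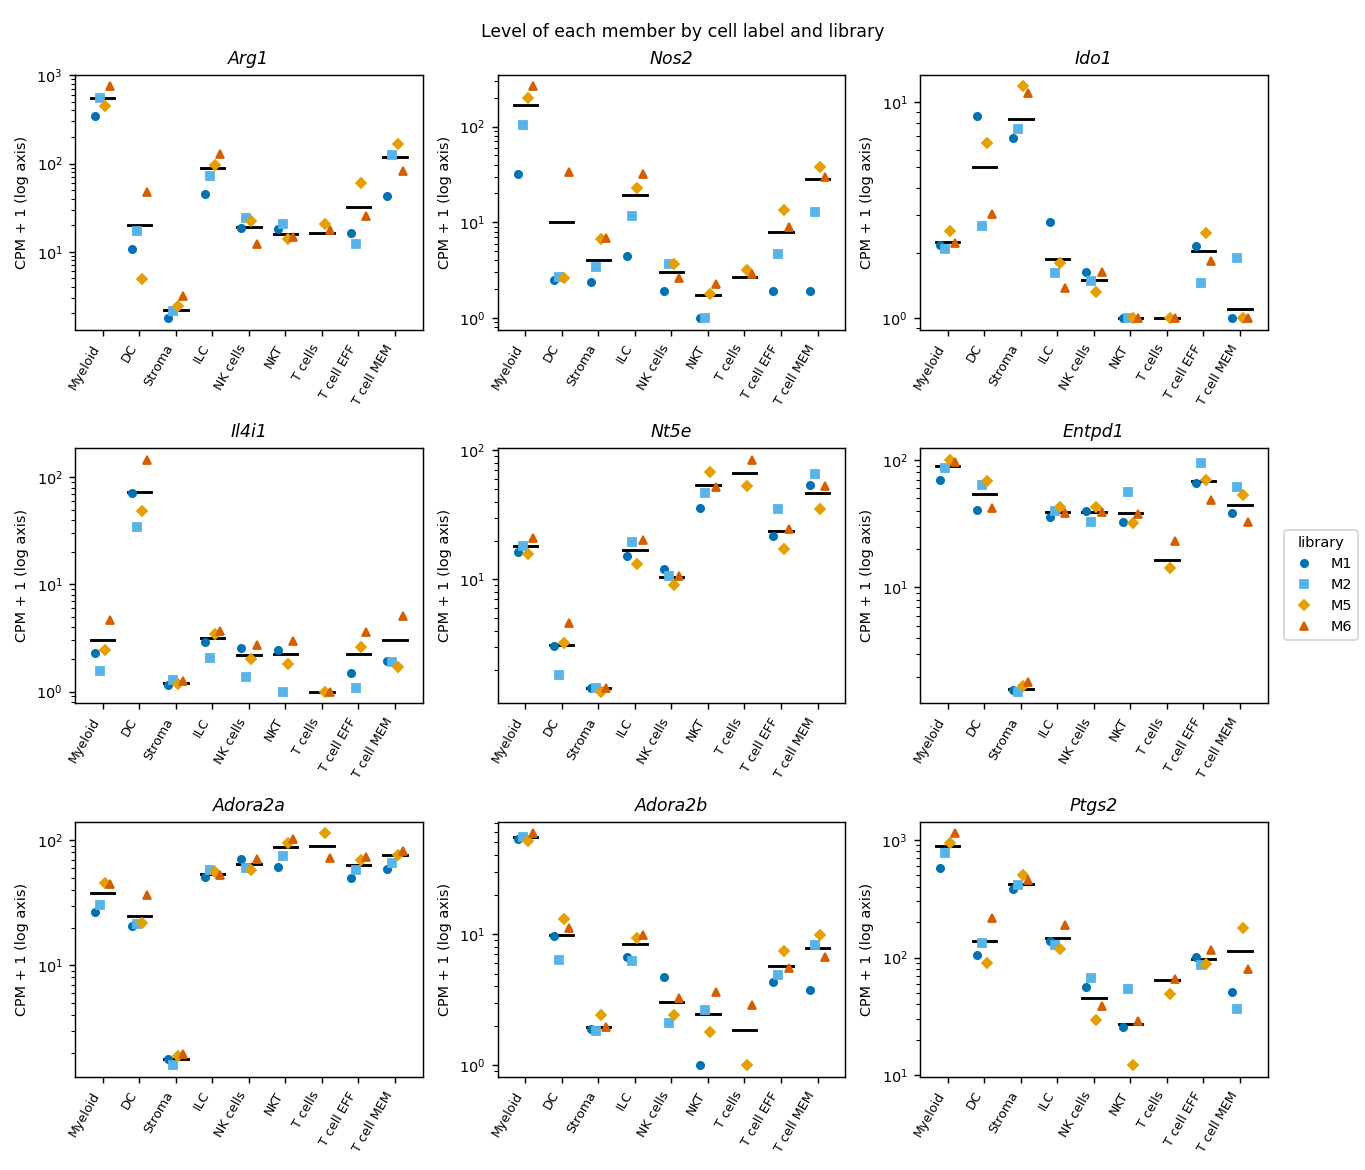
CPM + 1 of each gene (log axis) in the 9 cell labels with at least 50 cells in a library. Points are libraries M1, M2, M5 and M6, drawn where the library held at least 50 cells of the label, and black lines are the level over all cells of the label. *Arg1*, *Nos2* and *Adora2b* stand apart in Myeloid in all 4 libraries, *Il4i1* in DC, and *Entpd1* and *Adora2a* are spread over the leukocyte labels and near the bottom in Stroma.

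The gene *Arg1* lies at chr10:24915221-24927484 on the minus strand of GRCm38, with 7 exons. Its product cleaves arginine to ornithine and urea. In Myeloid cells it reached 549 CPM, with 347 (M1), 546 (M2), 445 (M5) and 753 (M6). That label held 66.1% of all *Arg1* UMIs. Memory T cells came next with 117 CPM (42.2 to 167 over libraries) and innate lymphoid cells (ILC) with 89.0 CPM (44.2 to 127), followed by naive T cells (32.2 CPM, 7 UMIs in 1 cell of M2 and 0 in the other libraries), effector T cells (31.4 CPM), DC (19.2 CPM) and NK cells (18.1 CPM). M5 held 1056 of the 1653 UMIs of effector T cells, and M6 held 92 of the 157 UMIs of DC. Pooled, DC and NK cells did not differ beyond their counting intervals. Within libraries DC were below NK cells in M5 (3.85 against 21.1 CPM) and above them in M6 (47.0 against 11.3 CPM). Stroma was lowest with 1.20 CPM. The Myeloid level was above that of every other label in all 4 libraries.

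The level came from a minority of the Myeloid cells. When every cell was thinned to 2000 UMIs, 23.9% of Myeloid cells (95% interval 22.3 to 25.6) had an *Arg1* UMI, against 1.92% of NK cells, which should lack the gene. In full-depth cells the same shares stood at 35.5% (median of 8027 UMIs per cell) and 4.96% (5397 UMIs). The top 10% of Myeloid cells held 79.9% of their *Arg1* UMIs, and the highest cell had 437. In memory T cells the level rested on still fewer cells, as 5 of 1179 cells held 521 of the 1218 UMIs. In that label *Arg1* was at 21.3% of its Myeloid level, beside 7.42% for *Lyz2*, 8.62% for *C1qa*, 10.3% for *Apoe* and 13.5% for *Il1b*, transcripts of myeloid cells.

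*Nos2* (chr11:78920787-78960254, plus strand, 29 exons) makes nitric oxide from arginine. It was also highest in Myeloid cells with 165 CPM, and its libraries lay far apart, with 31.3 CPM (266 UMIs, M1), 102 (M2), 198 (M5) and 263 (3433 UMIs, M6). M1 was lowest and M6 highest, and the counting intervals of the 4 libraries did not overlap, as the plot of library values shows. On the CPM + 1 scale the highest library exceeded the lowest by 8.16-fold. Among the 10635 genes with at least 100 UMIs in Myeloid cells the median of this ratio was 1.30, and 23 genes (0.216%) had one as large. The ratio was 2.16 for *Arg1*, 1.99 for *Ptgs2*, 1.44 for *Entpd1* and 1.15 for *Adora2b*.

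The same order appeared in the share of cells. At 2000 UMIs per cell, 4.36% of Myeloid cells of M1 (2.82 to 6.42), 11.8% of M2 (9.25 to 14.8), 19.1% of M5 (16.1 to 22.4) and 19.4% of M6 (16.7 to 22.3) had a *Nos2* UMI, against 0.308% of NK cells over all libraries. M5 and M6 did not differ beyond these intervals. It was also seen within each C1q class of the Myeloid label, described below: cells with 10 or more C1q UMIs had 30.0 CPM in M1 and 269 in M6, and cells with 0 or 1 had 32.9 and 258. Within the Myeloid label the summed macrophage markers were highest in M1 and lowest in M6 (4923 CPM for M1, then 4223 for M2, 3889 for M5 and 2212 for M6). Summed neutrophil markers were lowest in M1 and highest in M6 (801, 1291, 1211 and 1941 CPM), as were mature DC markers (54.0, 61.4, 110 and 151 CPM), and regulatory T cell markers were higher in M5 and M6 (83.4, 77.9, 216 and 226 CPM). The part of these markers in the *Nos2* level was not tested.

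**Figure D2:**
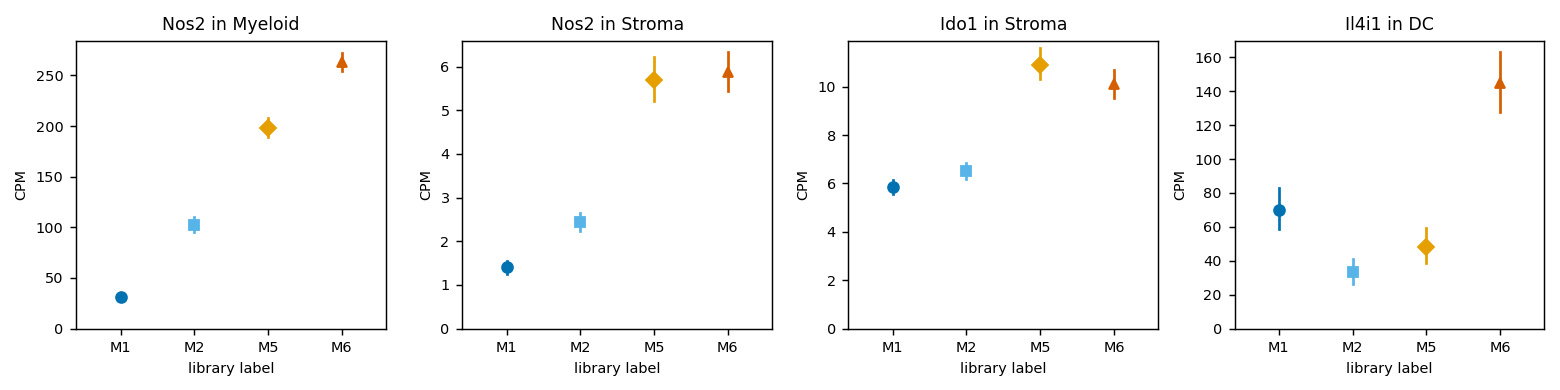
CPM with exact 95% Poisson intervals (vertical lines, counting error only) of *Nos2* in Myeloid and Stroma cells, *Ido1* in Stroma cells and *Il4i1* in DC, by library. *Nos2* in Myeloid cells ranges from 31.3 in M1 to 263 in M6, and *Il4i1* in DC from 33.1 in M2 to 145 in M6.

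Outside the Myeloid label, *Nos2* was at 27.4 CPM in memory T cells, where 5 of 1179 cells held 170 of the 285 UMIs. The libraries of memory T cells ranged from 0.918 CPM (1 UMI, M1) to 37.0 CPM (M5). ILC had 18.4 CPM. DC had 8.95 CPM, and 63 of their 73 UMIs came from M6. Without M6, DC therefore held 10 UMIs in 3 libraries. Stroma had 3.02 CPM but, being the largest label, held 20.1% of all *Nos2* UMIs. Its values were 1.40 (M1), 2.44 (M2), 5.70 (M5) and 5.88 (M6). M1 was again lowest, M2 next, and M5 and M6 did not differ beyond counting error.

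Detection of both arginine enzymes in 1 cell was examined in Myeloid cells at 2000 UMIs. A *Nos2* UMI was found in 29.1% of cells with *Arg1* (25.5 to 32.8) and in 9.80% of cells without it (8.52 to 11.2), and the share was higher with *Arg1* in 4 of 4 libraries. *Ptgs2* was detected in 74.1% of cells with *Nos2* and in 45.2% of cells without, and in 57.1% against 46.9% of cells with and without *Arg1*, both higher in 4 of 4 libraries. *Entpd1* was detected in 17.2% of cells with *Arg1* and 20.1% without, with overlapping intervals, and *Adora2b* in 9.36% and 12.2%, lower in 4 of 4 libraries but also with overlapping intervals (7.17 to 12 and 10.8 to 13.7). Cells with an *Arg1* UMI had been sequenced more deeply (median 13181 against 7761 UMIs before thinning), and the mast-like cells described below added to the cells without.

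Myeloid cells with an *Arg1* UMI (609 cells) were set beside those without (1938 cells) by pooled CPM, and genes were ranked by their smallest difference over the 4 libraries. Genes named here ranked among the first 10 in 2 independent thinnings or came from the marker and pathway lists. The macrophage elastase *Mmp12* was at 1151 against 197 CPM, the platelet factor 4 gene *Pf4* at 488 against 94.2 CPM, podoplanin (*Pdpn*) at 265 against 83.0 CPM and heme oxygenase 1 (*Hmox1*) at 892 against 350 CPM. From the marker list, *Mrc1*, the mannose receptor, was at 172 against 90.5 CPM, the largest log2 ratio (0.92) of the macrophage markers. *C1qa* (1226 against 946 CPM), *C1qb* (915 against 669 CPM) and *C1qc* (726 against 549 CPM) were higher in 4 of 4 libraries. *Adgre1* (110 against 103 CPM) and *Apoe* (1087 against 957 CPM) were higher in 3 of 4. The tryptase *Tpsb2* (24.4 against 460 CPM) and *Cpa3* (20.1 against 365 CPM), both of mast cells, were lower in cells with *Arg1*.

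Among Myeloid cells with *Nos2* (367 cells), the arginine transporter *Slc7a2* ranked first with 215 CPM, against 47.9 CPM in the 2180 cells without. The activin subunit *Inhba* (1378 against 365 CPM), *Cd38* (118 against 37.9 CPM) and *Acsl1*, a fatty acid activating enzyme (226 against 73.8 CPM), followed. Within libraries the log2 ratios were 1.77 to 2.35 for *Slc7a2*, 1.20 to 1.86 for *Inhba*, 1.16 to 1.42 for *Cd38* and 0.86 to 1.52 for *Acsl1*. From the lists, *Ass1*, which rebuilds arginine from citrulline, was at 274 against 149 CPM in the pooled cells. Of the 367 cells with *Nos2*, 122 were from M5 and 155 from M6, and pooled values therefore weight the libraries unequally. Pooled *C1qa* was at 866 against 1067 CPM, a log2 ratio of -0.30, but within libraries it lay between -0.06 and 0.06. Of the other macrophage markers, *Adgre1* was at 124 against 101 CPM (log2 differences within libraries of 0.19 to 0.59), *Mrc1* at 86.3 against 122 CPM (-0.86 to 0.29), *Apoe* at 1014 against 993 CPM (-0.29 to 0.64), *C1qb* at 662 against 762 CPM (0.04 to 0.08) and *C1qc* at 510 against 623 CPM (-0.07 to 0.12). The cells with *Nos2* had a median of 13012 UMIs and those without 7976. These pairs of labels and genes were selected after their values had been seen, and the splits are descriptions.

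In Stroma, 299 of 14073 cells had a *Nos2* UMI at 10000 UMIs per cell, the depth used there because levels were low. These cells differed widely from the rest. The acute phase gene *Saa3* was at 341 against 17.5 CPM, the alarmin *Il33* at 172 against 5.50 CPM, the pentraxin *Ptx3* at 81.9 against 3.11 CPM, lipocalin 2 (*Lcn2*) at 973 against 63.4 CPM, and the collagen cross-linking enzyme *Lox* at 108 against 3.57 CPM. *Col3a1* was at 1150 against 139 CPM. Of the 6 macrophage markers, *C1qa* (3.05 against 2.84 CPM) and *Adgre1* (0.313 against 0.215 CPM) were higher with *Nos2* in 3 of 4 libraries, *C1qb* (2.19 against 2.47 CPM) in 2 and *C1qc* (1.02 against 1.69 CPM) in 1. *Mrc1* (1.17 against 1.96 CPM) and *Apoe* (29.3 against 39.5 CPM) were lower in 4 of 4. *Psat1* (49.9 against 120 CPM) and *Psph* (55.2 against 113 CPM), enzymes of serine synthesis, were lower with *Nos2*.

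When Stroma cells were divided by *Col3a1*, cells with 10 or more UMIs had 8.56 CPM of *Nos2*, cells with 1 to 9 had 3.06 CPM and cells with 0 had 2.12 CPM. The class with 10 or more was above that with 0 in 4 of 4 libraries, with 8.11 against 0.448 CPM (M1), 8.27 against 1.66 (M2), 6.03 against 4.08 (M5) and 12.5 against 4.31 (M6). In M1, 5 of 6300 Stroma cells held 179 of the 375 *Nos2* UMIs. How many of these were in the class with 10 or more was not counted. Where the class was set after thinning to 2000 UMIs, it kept 103 cells, and the levels were 53.9 and 2.33 CPM. In M5 alone the high class was then slightly lower, with 4.39 against 4.76 CPM.

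Other genes of arginine metabolism were taken from a list of 13, of which 12 had at least 100 UMIs. The Myeloid label led for 3 of them (8.97% of all genes led there): the mitochondrial arginase *Arg2* with 268 CPM, *Gch1*, which makes a cofactor of nitric oxide synthases, with 147 CPM, and *Slc7a2* with 77.5 CPM. By library *Slc7a2* was at 23.6 (M1), 59.0 (M2), 67.8 (M5) and 130 (M6), and *Arg2* at 146, 201, 326 and 343. Both were lowest in M1 and highest in M6, like *Nos2*, whereas *Gch1* lay between 140 and 152 CPM. Stroma led for 5 (26.0% of all genes), among them *Odc1* (517 CPM) and *Srm* (185 CPM), which turn ornithine into polyamines, and the transporter *Slc7a1* (76.8 CPM). The remaining 4 led in DC (2), effector T cells (1) and the T cells label (1).

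The 2 amino acid oxidizing enzymes had separate patterns. *Ido1* (chr8:24584136-24597009, minus strand, 11 exons) had 95.9% of its 5359 UMIs in Stroma, at 7.42 CPM. The libraries were at 5.85 (M1), 6.50 (M2), 10.9 (M5) and 10.1 (M6). M1 and M2 lay below M5 and M6 by more than counting error. DC had 4.04 CPM from 33 UMIs (7.62 (M1), 1.66 (M2), 5.51 (M5) and 2.04 (M6)), and Myeloid cells 1.26 CPM from 48 UMIs. Naive T cells, with 4.59 CPM, rested on 1 UMI. NKT cells had 0 UMIs, which allows a level of up to 0.731 CPM.

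*Ido1* was sparse even where it was highest. At 10000 UMIs per cell, 4.47% of Stroma cells of M1 (3.95 to 5.04), 4.40% of M2 (3.82 to 5.03), 7.65% of M5 (6.44 to 9.0) and 7.09% of M6 (6.04 to 8.26) had a UMI. Of all Stroma cells 13.5% had one without thinning, at a median depth of 40692 UMIs, against 0.318% of NK cells at 5397 UMIs, and 1.14% against 0.0237% at 2000 UMIs. The cells with *Ido1* (737 of 14073 at 10000 UMIs) were set beside the others. The MHC class II genes *H2-Eb1* (61.8 against 19.5 CPM) and *H2-Aa* (71.1 against 24.2 CPM) ranked highest, with the invariant chain *Cd74* at 356 against 113 CPM. The interferon-induced chemokine *Cxcl10* was at 1824 against 569 CPM and the guanylate-binding protein *Gbp5* at 67.8 against 26.4 CPM. From the listed genes, *Irf1* (437 against 266 CPM), a factor of the interferon-γ response, and *Wars*, which charges tRNA with tryptophan (129 against 62.3 CPM), were higher with *Ido1* in 4 of 4 libraries.

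Lower in Stroma cells with *Ido1* were *Col3a1* (46.1 against 164 CPM) and the matrix gene *Aspn* (34.2 against 83.7 CPM). *Ero1l* (128 against 263 CPM), *Slc2a1* (62.8 against 110 CPM) and *Pgk1* (1076 against 1634 CPM) were lower as well, in 4 of 4 libraries each. Between *Col3a1* classes set on all UMIs, *Ido1* was at 6.77 CPM with 10 or more UMIs, 8.64 with 1 to 9 (6600 cells) and 6.38 with 0. The class with 1 to 9 was above that with 0 in 4 of 4 libraries. When the class was set after thinning, the 103 cells of the high class held 0 *Ido1* UMIs, which allows up to 0.865 CPM, against 6.04 CPM in the class with 1 to 9 and 7.58 CPM in the class with 0.

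**Figure D3:**
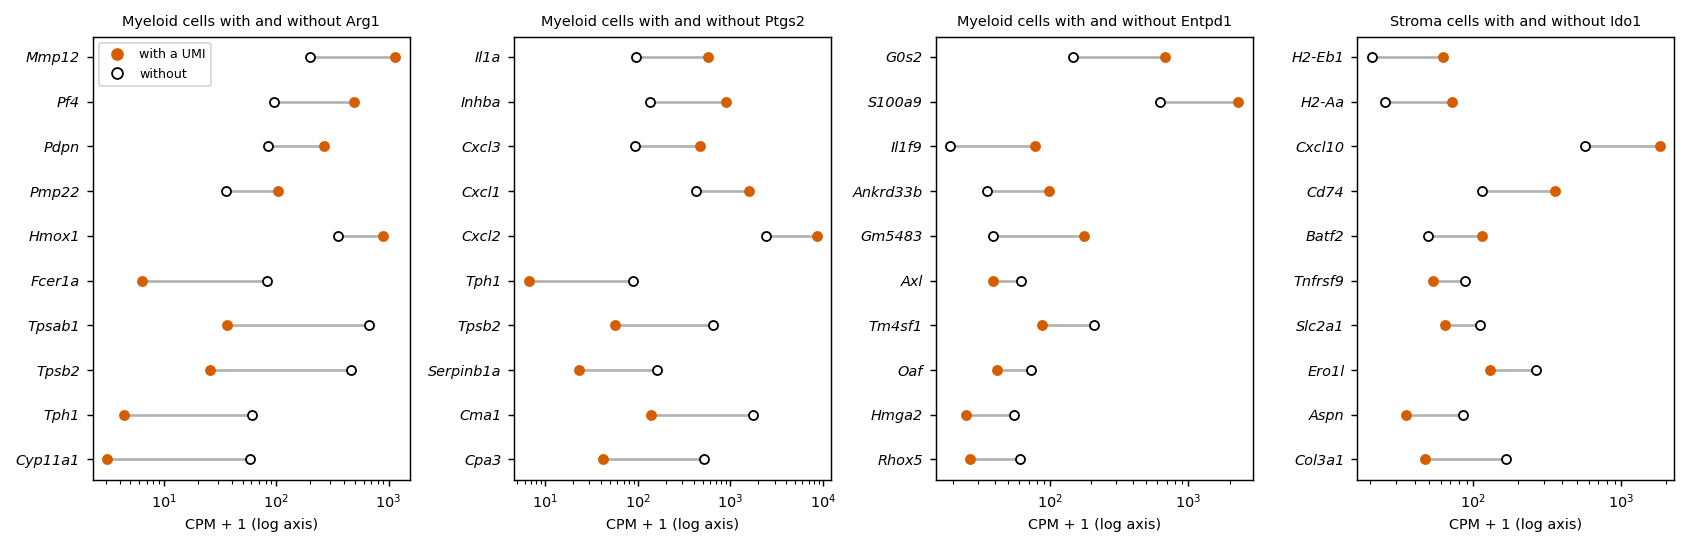
CPM + 1 (log axis) of genes in cells with (filled) and without (open) a UMI of *Arg1*, *Ptgs2* or *Entpd1* among Myeloid cells at 2000 UMIs per cell, and of *Ido1* among Stroma cells at 10000. The 5 highest and 5 lowest genes that ranked among the first 10 in both thinnings are drawn, for example *Mmp12* at 1151 with and 197 without *Arg1*, and *Cxcl10* at 1824 with and 569 without *Ido1*.

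*Il4i1* (chr7:44816387-44840809, plus strand, 9 exons) was highest in DC with 72.1 CPM. The libraries were at 70.1 (M1), 33.1 (M2), 47.9 (M5) and 145 (M6). M6 was highest and M2 lowest, and M6 was also highest in the summed mature DC markers *Ccr7*, *Fscn1* and *Ccl22* of the label (1985 CPM, against 681 for M1, 527 for M2 and 640 for M5), whose part in the level was not tested. B cells had 67.8 CPM, which overlapped with DC, but this value rested on 30 UMIs in 6 cells, of which 29 were in 5 cells. All other labels were at 4.59 CPM or below, with ILC at 2.17, Myeloid at 2.00 and NK cells at 1.19 CPM. At 2000 UMIs per cell 8.35% of DC (6.15 to 11.0) had a UMI, against 0.308% of NK cells.

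Within the DC and Myeloid labels, 117 mature DC-like cells (a UMI of both *Ccr7* and *Fscn1*) had 108 CPM of *Il4i1*, whereas 271 cDC1-like cells of the DC label (*Xcr1* or *Clec9a*) had 8.15 CPM. The mature class was higher in 4 of 4 libraries, with 104 against 6.53 CPM (M1), 87.6 against 1.81 (M2), 58.4 against 1.78 (M5) and 141 against 25.8 (M6). Classes set after thinning to 2000 UMIs differed more, with 462 against 6.26 CPM. DC with an *Il4i1* UMI (45 cells against 494) had 2827 against 248 CPM of *Ccr7*, 1802 against 147 CPM of *Fscn1* and 1116 against 124 CPM of the chemokine *Ccl22*, with log2 ratios of 2.22 to 3.43 over libraries for *Fscn1*. *Mreg* was at 145 against 12.4 CPM and *Socs2* at 446 against 48.7 CPM. *Xcr1*, with 13.8 against 197 CPM, and *Itgae*, with 3.06 against 111 CPM, were lower.

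The locus of *Il4i1* is crowded. Of its 4080 exonic bases in GRCm38, 83.9% overlap exons of *Tbc1d17* on the opposite strand and 2.38% exons of *Nup62* on the same strand, and whether counting used strand is not given in the sources used here, so its counts are uncertain. *Tbc1d17* itself was even over labels, with 16.8 CPM in DC, 19.3 CPM in Myeloid cells and 21 CPM in Stroma.

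The list of tryptophan and kynurenine genes held 13, of which 12 had at least 100 UMIs. DC led for 4 (8.71% of all genes), with the aryl hydrocarbon receptor *Ahr* at 112 CPM and the kynurenine enzymes *Kmo* and *Kynu* at 35.8 and 32 CPM. Stroma led for 2, where 26.0% of all genes led. *Wars* was at 60.1 (M1), 56.9 (M2), 86.1 (M5) and 80.1 (M6), and *Ido2*, the paralog of *Ido1*, at 6.82, 8.08, 16.0 and 11.6. Both were higher in M5 and M6 than in M1 and M2, as *Ido1* was, and so was *Irf1* of Stroma (217, 257, 390 and 361). *Ifng*, the gene of interferon-γ, was highest in effector T cells with 278 (M1), 278 (M2), 391 (M5) and 580 (M6).

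The first enzyme of the adenosine route, *Entpd1* (chr19:40612366-40741602, plus strand), was counted in all leukocyte labels but naive T cells. Myeloid cells had 88.5 CPM, with 68.4 (M1), 85.6 (M2), 99.2 (M5) and 95.7 (M6). Effector T cells had 67.8 CPM, with 64.2 (M1), 93.9 (M2), 68.0 (M5) and 47.1 (M6). The order of these labels was reversed in M2. DC followed with 52.8 CPM, memory T cells with 43.5, ILC with 38.2, NK cells with 37.9 and NKT cells with 37.0 CPM. The interval of DC (48.0 to 58.1) lay above that of memory T cells (39.5 to 47.7). From memory T cells to NKT cells each interval overlapped the next. The T cells label was lower, with 15.4 CPM (9.12 to 24.3). Stroma had 0.607 CPM. At 2000 UMIs, 19.4% of Myeloid cells (17.9 to 21), 13.7% of effector T cells (12.6 to 14.9) and 0.166% of Stroma cells had a UMI.

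Within the Myeloid label *Entpd1* was highest in the 372 neutrophil-like cells (10 or more summed UMIs of *S100a8* and *S100a9*, and a UMI of *Csf3r*), at 150 CPM. Their libraries were close together, with 142 (M1), 143 (M2), 151 (M5) and 154 (M6), and each was above that of cells with 10 or more C1q UMIs (64.7 to 77.6 CPM). With the class set after thinning, 158 cells remained and the level was 363 CPM. Myeloid cells with an *Entpd1* UMI (494 against 2053) had 2321 against 626 CPM of *S100a9*, 685 against 145 CPM of *G0s2*, an inhibitor of lipolysis, and 518 against 181 CPM of the niacin receptor *Hcar2*. *Csf3r*, the receptor of G-CSF, was at 94.6 against 42.6 CPM. *C1qa* was at 974 against 1042 CPM, with log2 ratios from -0.48 to 0.48 over libraries.

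CD8 T cells (effector and memory labels, a CD8 chain, no *Cd4* or *Foxp3*) with UMIs of both *Pdcd1* (PD-1) and *Havcr2* (TIM-3), 1701 cells, had 92.2 CPM, and those with neither (303 cells) had 23.4 CPM of *Entpd1*. The values were 86.8 against 16.8 CPM (M1), 122 against 10.8 (M2), 88.7 against 28.7 (M5) and 65.0 against 29 (M6), so that the class with both was higher in 4 of 4 libraries. The cells of this class were sequenced more deeply (median 11704 against 4911 UMIs), and when it was set at equal depth the log2 ratio was 1.26 instead of 1.93. Effector T cells with an *Entpd1* UMI had 206 against 108 CPM of *Havcr2*, 2154 against 1216 CPM of the chemokine *Ccl5* and 3943 against 2227 CPM of granzyme B (*Gzmb*), but 243 against 404 CPM of *Ifng*. Effector T cells without it were higher in *Cald1* (86.3 against 30.1 CPM) and *Fn1* (73.9 against 28.4 CPM), which are not T cell genes.

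*Nt5e* (chr9:88327197-88372092, plus strand, 9 exons), whose product completes the step from AMP to adenosine, was a gene of the T cell labels. The generic T cells label had 65.8 CPM from 77 UMIs, NKT cells 52.4 and memory T cells 45.8 CPM, and these neighbors did not differ beyond counting error. The generic T cells and NKT labels were also those that led in *Foxp3*. NKT cells were at 34.6 (M1), 45.4 (M2), 67.1 (M5) and 51.1 (M6), and memory T cells at 53.2, 64.3, 34.0 and 51.5. Among labels with at least 50 cells in a library, the leading label thus changed from library to library. Effector T cells had 22.6 CPM (16.2 to 34.1), Myeloid cells 17.1, ILC 15.9 and NK cells 9.40 CPM. DC were low with 2.08 CPM, and Stroma with 0.430 CPM. At 2000 UMIs per cell 8.49% of memory T cells (6.94 to 10.3) and 5.73% of effector T cells (4.98 to 6.54) had a UMI, against 0.115% of Stroma cells.

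The 2 ectoenzymes had overlapping intervals of joint detection in effector T cells, where *Entpd1* was found in 10.3% of cells with *Nt5e* (6.52 to 15.4) and 13.9% of cells without (12.8 to 15.1). *Nt5e* did not follow the class with *Pdcd1* and *Havcr2*, which had 19.7 CPM against 22.9 CPM with neither, and the sign of this difference turned when the class was set at equal depth. The intermediate class with 1 of both receptors was highest, with 37.2 CPM. Effector T cells with *Nt5e* (203 cells) had 599 against 348 CPM of *Ccr7*, a homing receptor of naive and central memory T cells, and 50.8 against 29.9 CPM of *Faah*, a fatty acid amide hydrolase. CD3+ cells with *Foxp3* (868), the factor of regulatory T cells, had 33.8 CPM of *Nt5e* and those without 27.5 CPM, higher in M5 and M6 and lower in M1 and M2. *Entpd1* was at 49.0 with and 63.7 without *Foxp3*, lower in 3 of 4 libraries. The 4932 cells without *Foxp3* included CD8 T cells, whose class with both *Pdcd1* and *Havcr2* (1701 cells) had 92.2 CPM of *Entpd1*. Other T cells without *Foxp3* were not set apart, and the part of CD8 T cells in these differences was not tested.

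The adenosine receptor gene *Adora2a* (chr10:75316877-75334784, plus strand, 5 exons) was counted in all T and NK labels. The generic T cells label had 89.8 CPM, NKT cells 87.9, memory T cells 74.8, naive T cells 64.3 (14 UMIs), NK cells 63.5, effector T cells 62.2 and ILC 53.2 CPM. The counting intervals of NK cells and effector T cells overlapped, whereas that of memory T cells (69.6 to 80.2) lay above that of NK cells (61.0 to 66.0). NK cells were at 69.6 (M1), 59.4 (M2), 56.4 (M5) and 70.4 (M6). Effector T cells were at 48.6, 56.5, 68.5 and 71.9. M1 was high among the libraries in NK cells and lowest in effector T cells. Myeloid cells had 37.0 CPM, DC 23.9 CPM and Stroma 0.768 CPM. DC were uneven, as mature DC-like cells had 48.6 CPM and cDC1-like cells 12.5 CPM. With classes set after thinning to 2000 UMIs, the mature class (52 cells) had 130 CPM and the cDC1-like class 12.9 CPM. At 2000 UMIs 16.6% of NK cells (15.5 to 17.8), 12.3% of effector T cells and 0.134% of Stroma cells had a UMI.

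NK cells with an *Adora2a* UMI (702 against 3516, median depth 4185 against 6105 UMIs) had 7494 against 2516 CPM of *Ccl5*, 79.0 against 36.4 CPM of the integrin *Itga2* and 510 against 267 CPM of *Klf2*, a factor of circulating lymphocytes. The granzyme genes *Gzmc* (2367 against 5150 CPM) and *Gzmd* (885 against 2704 CPM) were lower, whereas *Gzma* (14600 against 15267 CPM) and *Gzmb* (4810 against 4987 CPM) hardly differed. *Adora2a* was at 57.0 CPM in CD8 T cells with *Pdcd1* and *Havcr2* and 74.3 CPM in those with neither, lower in 4 of 4 libraries, but at equal depth the log2 ratio was -0.00. With *Foxp3* it was at 81.8 CPM and without at 62.8 CPM, higher in 3 of 4 libraries and lower in M1.

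*Adora2b* (chr11:62248984-62266453, plus strand, 2 exons), the low affinity receptor, was a Myeloid gene with little variation between libraries, at 52.2 (M1), 54.1 (M2), 50 (M5) and 57.8 (M6) (54.0 CPM over all). DC had 8.82, ILC 7.35, memory T cells 6.83, NK cells 2.05 and Stroma 0.948 CPM. At 2000 UMIs per cell 11.5% of Myeloid cells (10.3 to 12.8) and 0.332% of NK cells had a UMI. Cells with an *Adora2b* UMI (293 against 2254) had 806 against 255 CPM of thrombospondin 1 (*Thbs1*). They were higher in *Ly6c2* (799 against 326 CPM) and *Plac8* (1742 against 893 CPM), and lower in *Cd81* (50.2 against 131 CPM). *Ly6c2* and *Plac8* are from the monocyte list but did not mark monocytes alone. Over all labels *Ly6c2* led in memory T cells (483 CPM) and *Plac8* in NK cells (1169 CPM). The adenosine list had 14 genes, of which 12 had at least 100 UMIs and 4 led in Myeloid cells (8.97% of all genes), with *Pnp*, which breaks down inosine, at 292 CPM, *Bst1* at 150 and the ATP-gated channel *P2rx7* at 20.5 CPM. The adenosine deaminase *Ada* led in NK cells with 56.8 CPM and *Cd38* in B cells with 65.5 CPM.

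*Ptgs2* lies at chr1:150100031-150108227 on the plus strand with 11 exons. Its promoter is shown because COX-2 is an induced enzyme and *Ptgs2* was high in 2 unlike labels. The 250 bases before its start (chr1:150099781-150100030, plus strand, RefSeq, GRCm38.p6; the reference and not the tumor sequence) read, with a palindrome bound by C/EBP factors in capitals:

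Ptgs2: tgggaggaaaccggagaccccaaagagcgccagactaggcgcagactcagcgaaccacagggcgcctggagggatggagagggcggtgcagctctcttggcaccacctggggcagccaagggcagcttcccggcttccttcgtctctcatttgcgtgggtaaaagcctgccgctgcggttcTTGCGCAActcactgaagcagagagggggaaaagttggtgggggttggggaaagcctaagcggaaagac

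The capitals, TTGCGCAA, begin 69 bases before the start, and 54 of 32851 windows of the same length (0.164%) held these letters. Searched on both strands in the same window and not found were CACGTG (an E-box, in 6.02% of windows), TGACG (17.8%), ACGTG (16.6%, part of some E-boxes), TTCNNNGAA (7.02%) and TATAAA (12.4%). Only this window was searched, so letters further upstream or after the annotated start were not covered. Such a match is a description of the letters. The window also overlaps an exon of the noncoding gene *Ptgs2os* on the opposite strand. The same table held promoters of *Il4i1*, *Nt5e*, *Adora2b* and *Entpd1*, and the only other match was TGACG before 2 starts of *Entpd1*.

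Myeloid cells had 894 CPM of *Ptgs2*, with 571 (M1), 774 (M2), 940 (M5) and 1138 (M6). Stroma had 417 CPM, with 381 (M1), 409 (M2), 498 (M5) and 453 (M6). Myeloid was above Stroma in 4 of 4 libraries, by the least in M1. As Stroma was the largest and deepest label, it held 84.4% of the 341589 *Ptgs2* UMIs and Myeloid cells 9.94%. ILC (146 CPM) and DC (136 CPM) came next and overlapped, followed by memory T cells (113), effector T cells (96.2), the T cells label (64.1), NK cells (44.1) and NKT cells (26.1 CPM).

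The labels differed in how the transcript was distributed. Nearly all Stroma cells had it, 14191 of 15687 (90.5%) at a median depth of 40692 UMIs, against 11.8% of NK cells at 5397 UMIs. At 2000 UMIs the shares were 45.5% of Stroma (44.7 to 46.2), 49.4% of Myeloid (47.4 to 51.3) and 4.46% of NK cells. The median cell of both labels had 292 CPM, whereas the 95th percentile was 1327 CPM in Stroma and 4825 CPM in Myeloid cells. The top 10% of cells held 37.9% of the *Ptgs2* UMIs of Stroma and 55.3% of those of the Myeloid label.

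Myeloid cells with *Ptgs2* (1257, median 10165 UMIs) and without (1290, median 6962 UMIs) were compared in the same way. *Il1a* (576 against 95.3 CPM), *Inhba* (891 against 134 CPM) and the neutrophil-attracting chemokines *Cxcl3* (465 against 91.7 CPM), *Cxcl1* (1602 against 421 CPM) and *Cxcl2* (8609 against 2438 CPM) ranked highest, and *Il1b* was at 6219 against 2100 CPM. Prostaglandin E synthase, *Ptges*, was at 38.2 against 20.5 CPM and the phospholipase *Pla2g4a* at 63.1 against 46.0 CPM, both higher in 4 of 4 libraries, whereas prostaglandin D synthase, *Hpgds*, was at 17.1 against 35.5 CPM. *Cpa3* (41.3 against 523 CPM) and *Cma1* (136 against 1768 CPM), genes of mast cells, were lowest. The mast-like cells described below added to the cells without *Ptgs2*, and their part in the difference of *Hpgds* was not tested. *Il1b* itself was at 2836 (M1), 3921 (M2), 4398 (M5) and 5537 (M6) in the Myeloid label, and *Tnf* at 185, 254, 423 and 444, with M1 lowest and M6 highest as for *Ptgs2*.

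In Stroma the split by *Ptgs2* (7110 against 8532 cells) gave smaller differences. The growth factor *Ereg* (264 against 150 CPM), *Cxcl1* (2190 against 1394 CPM), *Il11* (158 against 97.9 CPM) and the IL-33 receptor *Il1rl1* (337 against 218 CPM) were higher with *Ptgs2* in 4 of 4 libraries. *Apoe* was lower, with 9.57 against 70.0 CPM. Between *Col3a1* classes the level was nearly the same, with 435 CPM at 10 or more UMIs, 420 CPM at 1 to 9 and 411 CPM at 0, and the sign of the difference turned at equal depth (386 and 414 CPM).

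All 17 listed prostaglandin genes had at least 100 UMIs. Stroma led for 6 (26.0% of all genes), including the cochaperone and synthase *Ptges3* (296 CPM), *Ptges* (116 CPM) and cyclooxygenase 1, *Ptgs1* (98.0 CPM). Myeloid cells led for 4 (8.97% of all genes), among them *Pla2g4a* (55.4 CPM), thromboxane synthase *Tbxas1* (41.7 CPM) and *Hpgds* (25.7 CPM). The other 7 led in T, NKT and B cell labels, such as the receptor *Ptger2* in the T cells label (13.7 CPM). *Ptges* and *Ptgs1* of Stroma varied little by library, at 110 to 127 and 95.1 to 102 CPM.

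Division of the Myeloid label by the summed UMIs of *C1qa*, *C1qb* and *C1qc*, which mark mature macrophages, separated the members, as the plot of Myeloid classes shows. Cells with 10 or more C1q UMIs (659) had more *Arg1* than cells with 0 or 1 (1665), with 636 against 468 CPM, and were higher in 4 of 4 libraries: 462 against 239 (M1), 777 against 326 (M2), 535 against 362 (M5) and 784 against 722 (M6). *Adora2b* was the reverse, with 26.3 against 76.4 CPM, as were *Ptgs2* (478 against 1202 CPM) and *Entpd1* (72.9 against 103 CPM), each lower with C1q in 4 of 4 libraries. *Nos2* was at 150 and 174 CPM, lower with C1q in M1, M2 and M5 and higher in M6. *Adora2b* was at 24.0 against 76.7 CPM (M1), 25.2 against 85.0 (M2), 20.4 against 73.2 (M5) and 34.2 against 74.3 (M6).

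The class is a range of UMI counts and not a cell type, and 356 cells had 2 to 9 C1q UMIs. Neutrophil-like and mast-like cells were picked from the whole label and therefore also lie within the C1q classes. Neutrophil-like cells had 578 CPM of *Arg1*, with 303 (M1), 1205 (M2), 244 (M5) and 605 (M6). The part of neutrophil-like and mast-like cells in the differences between C1q classes was not tested. When classes were set on cells thinned to 2000 UMIs, *Ptgs2* was at 276 against 1158 CPM and *Nos2* at 108 against 175 CPM. Mast-like cells of the Myeloid label (216 cells with 10 or more *Cpa3* UMIs) had 18.3 CPM of *Arg1*, 2.81 CPM of *Nos2* and 181 CPM of *Ptgs2*. After thinning, 138 such cells remained with 11.2 CPM of *Arg1*, 0 UMIs of *Nos2* (which allows up to 4.21 CPM) and 21.1 CPM of *Ptgs2*.

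**Figure D4:**
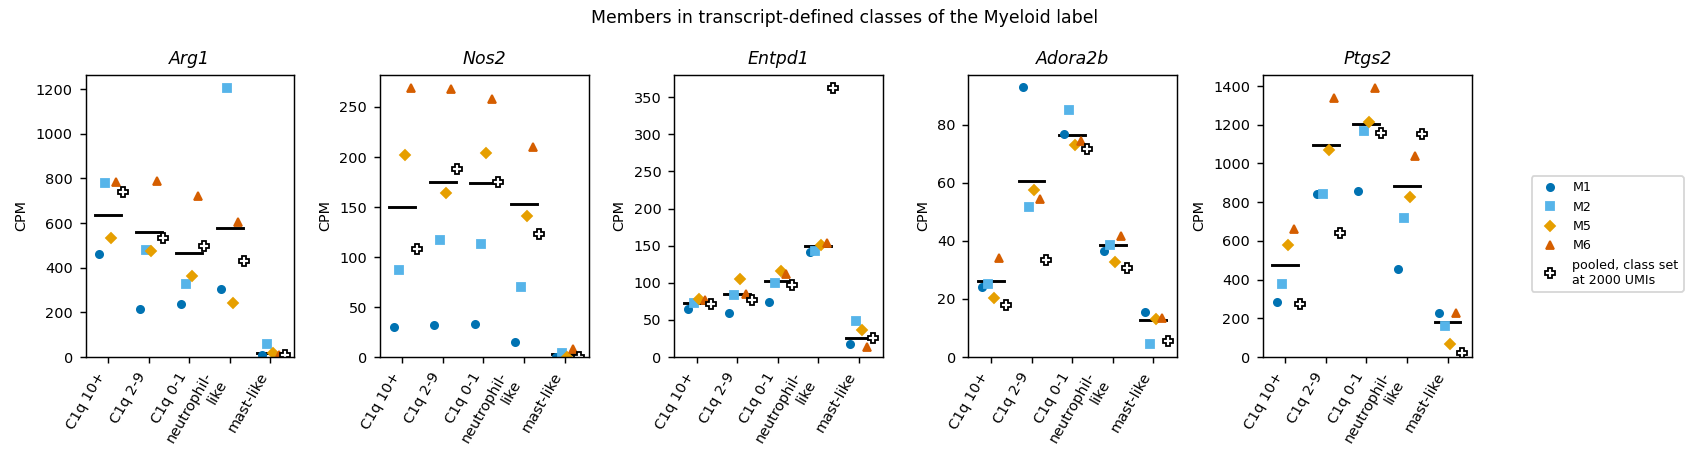
CPM of the 5 members that led in Myeloid cells, in cells with 10 or more, 2 to 9 and 0 or 1 C1q UMIs and in neutrophil-like and mast-like cells of the label. Points are libraries, black lines all libraries, and open crosses the level when the class was set on cells thinned to 2000 UMIs. Neutrophil-like and mast-like cells also lie within the C1q classes. *Adora2b* and *Ptgs2* are lower with 10 or more C1q UMIs (26.3 and 478 CPM) than with 0 or 1 (76.4 and 1202 CPM), *Entpd1* is highest in neutrophil-like cells, and mast-like cells are low for each gene drawn.

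Several Myeloid members were also counted in the ILC label, at 16.2% of the Myeloid level for *Arg1*, 16.3% for *Ptgs2*, 13.6% for *Adora2b* and 11.2% for *Nos2*, beside 8.35% for *Lyz2*, 9.24% for *C1qa*, 11.3% for *Il1b* and 13.1% for *Apoe*. ILC with an *Arg1* UMI (199 cells) had 2251 against 411 CPM of *Lyz2*, 331 against 75.7 CPM of *C1qa* and 238 against 438 CPM of the NK receptor *Ncr1*, compared with ILC without (4320 cells). They had been sequenced more deeply, with a median of 17903 against 9888 UMIs. ILC with *Ptgs2* (382 cells, median 19391 against 9656 UMIs) likewise had 1858 against 236 CPM of *Il1b* and 217 against 461 CPM of *Ncr1*. A scrublet score over 0.25, which marks likely doublets, was found in 3.33% of ILC and 1.81% of all cells. Effector T cells were at 3.28%, but memory T cells, next to Myeloid for *Arg1* and *Nos2*, at 0.509%. The part of doublets and of free RNA in these levels was not tested.

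The 9 genes were finally compared over the 34 profiles of a label in a library with at least 50 cells. Such profiles share libraries, and depth differs between labels, so correlations are descriptions. *Nt5e* and *Adora2a* were most alike (Pearson r = 0.84), followed by *Nos2* with *Adora2b* (0.81), *Entpd1* with *Adora2a* (0.81) and *Arg1* with *Nos2* (0.78), while *Ido1* ran against *Nt5e* (-0.89). Among all 15358 genes the profile closest to *Arg1* was that of *Clec4d* (0.95), and to *Nos2* those of *Mmp8* (0.91) and *Slc7a2* (0.91). For *Ido1* it was *Gm14137* (0.94), for *Il4i1* *Tmtc2* (0.95), for *Nt5e* *Faah* (0.96) and for *Entpd1* the integrin *Itgb2* (0.98). *Rac2* was closest to *Adora2a* (0.99), *Gm5150* to *Adora2b* (0.95) and *Flrt2* to *Ptgs2* (0.95).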

How the data were processed

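Per the labels, libraries were made with droplet 3′ chemistry from CD45+ bead-enriched tumor cells. The submitters' processing notes name Cell Ranger 3.0.2 and the mouse builds mm10 and GRCm38, and the authors removed cells with few UMIs. The deposited table held untransformed UMI counts for every gene in every cell, and a second table gave the library and cell type labels. No group could be assigned to a library, so no differential test was run. The 9 genes, lists and classes were chosen with earlier results of these data known, and the pairs of gene and label that were split were chosen after values were seen.

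UMIs were summed per label and library and divided by all UMIs of those cells (CPM). Labels needed at least 50 cells to be ranked by library, and genes at least 100 UMIs. Intervals are exact Poisson and exact binomial (Clopper-Pearson) at 95%, and where no UMI was found the limit given is 3 counts. For shares, cells were thinned without replacement to 2000 UMIs, or 10000 in Stroma, and shallower cells left out. Log2 ratios used a pseudocount of 1 CPM. Genes were named by rule: the 9 members, the 5 most correlated genes of each, the 3 highest of each list in the label at issue, and in split cells those with at least 50 CPM that ranked in the first 10 by their smallest difference over libraries, in both of 2 thinnings, over libraries with at least 20 cells on each side (5 for *Il4i1* in DC). Other genes shown are listed pathway and marker genes, or were picked from the tables after their values were seen. Doublets were kept and scored with scrublet in scanpy 1.11.5 (expected rate 0.06), which put 613 of 33961 cells over 0.25. Alternatives were no or other thinning, equal weight per cell or library, and leaving out libraries, cells over 10% mitochondrial UMIs, doublet scores over 0.25, the 5 cells with most UMIs of the gene, and shared barcodes. Scripts (Python 3.11.15, numpy 2.4.6, scipy 1.17.1, pandas 2.3.3) were tested on simulated data. RefSeq promoters were held for 5 of the 9 genes. One listed gene is not reported here.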

Additional observations from a re-analysis of the deposited data

How the results depend on the processing

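No paired analysis was possible because M1, M2, M5 and M6 were tied to no sample, treatment or replicate number. No test was made, and libraries cannot be told apart from treatments. Depth limits the rarest genes: in B, naive T and generic T cells few UMIs decide the order. All 5 members that led in Myeloid did so under each of the 8 alternatives run, and without shared barcodes, an alternative chosen after seeing the data like the library and doublet alternatives for classes, no value moved beyond its counting interval. The cause of the shifts below was not tested.

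Log2 ratios of the highest over the next label moved as follows. The next label was naive T cells for *Ido1* (1 UMI in 55 cells) and B cells for *Il4i1* (30 UMIs in 6 cells). Both ratios therefore turned on few UMIs. With equal weight per cell, *Arg1* (2.22 as reported) was at 3.24, *Nos2* (2.54) at 4.31, *Il4i1* (0.09) at 1.05, *Entpd1* (0.38) at 0.69 and *Ptgs2* (1.10) at 1.31. With equal weight per library, *Arg1* was at 2.32, *Nos2* at 2.86 and *Ptgs2* at 0.98. Without the 5 cells with the most UMIs, *Arg1* was at 2.87, *Nos2* at 3.67, *Ido1* (0.59) at 3.04, *Il4i1* at 3.74, *Ptgs2* at 1.07 and *Adora2a* (0.03) reversed to -0.16. *Adora2a* reversed to -0.14 without cells of over 10% mitochondrial UMIs and to -0.04 without doublet scores over 0.25, where *Ptgs2* was at 1.12 and 1.15. Leaving out 1 library at a time gave 1.66 to 2.81 for *Arg1*, 2.04 to 2.85 for *Nos2*, -0.09 (without M6) to 2.98 for *Ido1*, -0.22 (without M6) to 0.69 for *Il4i1* with -0.02 without M5, -0.07 (without M6) to 0.69 for *Nt5e*, 0.20 to 0.54 for *Entpd1*, -0.19 (without M5) to 0.40 for *Adora2a* with -0.01 without M1 and -0.05 without M2, and 0.90 to 1.16 for *Ptgs2*.

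Shares of cells with a UMI grew with depth and are given for the leading label at 1000 UMIs, 4000 UMIs and without thinning. In Myeloid cells they were 17.8%, 30.9% and 35.5% for *Arg1* (23.9% at 2000), and 9.63%, 21.8% and 26.5% for *Nos2*. *Entpd1* was there at 10.8%, 29% and 52.0%, *Adora2b* at 5.75%, 20.5% and 32.4%, and *Ptgs2* at 37.8%, 61.7% and 65.1%. In Stroma *Ido1* was at 0.555%, 2.30% and 13.5%. In the generic T cells label *Nt5e* was at 6.40%, 20.2% and 26.1% (12.6% at 2000). *Adora2a* was there at 10.8%, 24.8% and 33.0% (15.7% at 2000). For *Il4i1* in DC the shares were 12.7% at 4000 and 15.3% without thinning. Leaving out 1 library at a time gave 21.7% to 25.3% for *Arg1*, 12.1% to 17.2% for *Nos2* and 45.1% to 52.0% for *Ptgs2*.

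With classes set on cells thinned to 2000 UMIs, the log2 ratio of 10 or more over 0 or 1 C1q UMIs was 0.58 for *Arg1*, -0.69 for *Nos2*, -1.92 for *Adora2b* and -2.07 for *Ptgs2*. That of neutrophil-like over C1q-high cells was 2.32 for *Entpd1*, and those of mast-like over C1q-low cells were -5.34 for *Arg1*, -7.46 for *Nos2* and -5.72 for *Ptgs2*. In CD8 T cells with both receptors over neither, *Nt5e* reversed to 0.15, *Entpd1* was at 1.26 and *Adora2a* at -0.00. With over without *Foxp3*, *Nt5e* was at 0.68 and *Entpd1* at -0.61. Mature DC-like over cDC1-like cells gave 5.99 for *Il4i1* and -3.15 for *Entpd1*. In Stroma, *Col3a1* 10 or more over 0 gave 4.05 for *Nos2*, and *Ido1* reversed to -3.10 and *Ptgs2* to -0.10. The values of *Ido1* here and of *Nos2* in mast-like cells rest on a class with 0 UMIs and depend on the pseudocount. Without doublet scores over 0.25, the C1q ratio of *Ptgs2* was -1.39 and the mast-like ratio of *Arg1* -5.65. Leaving out 1 library at a time gave 0.26 to 0.89 for *Arg1*, -0.29 to -0.10 for *Nos2* and -1.42 to -1.22 for *Ptgs2* by C1q, -5.40 to -3.78 for *Arg1* and -3.05 to -2.49 for *Ptgs2* in mast-like cells, 3.20 to 4.44 for *Il4i1* in mature DC-like cells, and 1.32 to 1.83 for *Nos2* and 0.04 to 0.14 for *Ptgs2* by *Col3a1*.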
